A study of Mus musculus with 12 samples.

Results

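Fezf2, Cux2, Tbr1, Neurod2, Neurod6, Rorb and Emx1 are 7 transcription factor genes that mark the identity of excitatory neurons of the cerebral cortex. They were taken by name from the deposited table of 21492 genes, and all 7 were measured in each of the 12 libraries. Male C57BL/6J mice gave striatal RNA on postnatal day 70. They were wild type (WT) or carried a Shank3 transgene (TG), Shank3 being a scaffold protein of the postsynaptic density. From each genotype, RNA of synaptosomes (input) and RNA of the polyribosomes isolated from synaptosomes (polysome) was sequenced, which makes 4 groups of 3 libraries. Synaptosomes are pinched-off nerve terminals with attached postsynaptic membrane, and polyribosomes are transcripts carrying several ribosomes. Sample titles number the libraries 1 to 3 in every group, but the labels do not say whether a number is an animal, a litter or a preparation. They also do not name the promoter or line of the transgene, or how many animals 1 library holds.

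Excitatory neurons of the cortex arise from dorsal progenitors that express Emx1. As they leave the cell cycle they switch on the basic helix-loop-helix factors Neurod2 and Neurod6, and they then divide into layer types under factors such as Tbr1 and Fezf2 in the deep layers and Cux2 and Rorb in the upper layers. The striatum holds mainly inhibitory medium spiny neurons, which come from ventral progenitors, while its excitatory input arrives on axons from the cortex and thalamus. Striatal tissue therefore contains cortical terminals without their nuclei, and cortex borders it across the external capsule.

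The promoters of Neurod2, Neurod6 and Rorb are shown as examples of different directions between the fractions. Neurod6 lay lower and Rorb higher in polysome than in input RNA in every pair of libraries, and Neurod2 on neither side. Emx1, not printed, also lay higher in every pair. Of all genes, 25% were higher and 24.1% lower in all 6 pairs. Each sequence is the RefSeq window of 250 bases before the annotated start on GRCm38.p6, 5′ to 3′ on the gene's strand, and capitals mark CANNTG, the E-box core that basic helix-loop-helix factors recognise.
Neurod2, chr11:98329646-98329895, minus strand: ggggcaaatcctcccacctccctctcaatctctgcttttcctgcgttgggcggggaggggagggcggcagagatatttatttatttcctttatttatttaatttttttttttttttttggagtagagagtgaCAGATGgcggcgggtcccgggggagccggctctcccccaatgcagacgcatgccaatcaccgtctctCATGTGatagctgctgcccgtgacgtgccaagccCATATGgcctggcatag
Neurod6, chr6:55681264-55681513, minus strand: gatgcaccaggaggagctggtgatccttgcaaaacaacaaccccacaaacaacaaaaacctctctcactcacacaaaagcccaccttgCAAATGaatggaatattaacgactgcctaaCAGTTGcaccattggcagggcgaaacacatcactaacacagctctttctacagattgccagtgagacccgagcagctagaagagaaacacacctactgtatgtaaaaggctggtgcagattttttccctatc
Rorb, outer start site, chr19:19111197-19111446, minus strand: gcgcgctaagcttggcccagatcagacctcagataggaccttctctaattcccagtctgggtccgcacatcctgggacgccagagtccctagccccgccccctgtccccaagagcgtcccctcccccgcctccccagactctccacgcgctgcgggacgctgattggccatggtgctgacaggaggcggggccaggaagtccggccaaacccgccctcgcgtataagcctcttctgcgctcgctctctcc
The Neurod2 window held 3 E-box cores, the Neurod6 window 2 and the printed Rorb window none. A second RefSeq start of Rorb, at chr19:19001118-19001367, had 2, as many as Neurod6. Which start is used is not known here, and a link between the cores and the fractions was not tested. Among the windows not printed, those of Tbr1 and Emx1 held 1 core each, that of Fezf2 none, and those of the 2 Cux2 starts 1 and 2. One Neurod2 core is CAGATG, a form known to be bound by Neurod proteins. The window of the second Cux2 start held it too, on the opposite strand, and the other windows did not. CANNTG reads the same on both strands, and it occurred in 66.2% of 32851 RefSeq promoter windows of the same length, so that having it is common. CAGATG, on either strand, was found in 14.4% of those windows. GC content was 52.8% for Neurod2, 46.0% for Neurod6 and 66.0% for the printed Rorb window.

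Depth, estimated from the spacing of low values, was 62.0 to 85.4 M reads in input and 76.9 to 102.6 M reads in polysome libraries. A read was worth 1.27 to 1.81 units in input and 0.61 to 0.84 units in polysome libraries. On that scale the 7 genes were supported by an estimated 72 reads (Emx1, WT input number 2) to 6222 reads (Rorb, TG polysome number 1). The Shank3 value checked the genotype labels: it was 2.41 to 4.20 times higher in the TG than in the WT input library of the same number, and 2.10 to 3.41 times higher in polysome. Between numbers Shank3 also differed, and the WT and TG groups overlapped. Its log2 difference of 1.57 ± 0.49 (SE) in input and 1.53 ± 0.52 in polysome did not pass limma with Benjamini-Hochberg adjustment (adjusted p = 1.00 in each).

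Coordinates of the 7 genes are those of GENCODE M21 on GRCm38, and each gene spans protein-coding exons and introns from start to end. Values are the authors' normalized estimated counts, given below in the order of numbers 1, 2 and 3, and their mean is given with the SD over 3 libraries. None of the genes shared more than 0.702% of its exonic 31-base sequences with another gene. The antisense genes Gm3970 and Gm15637 lie opposite Cux2 without exonic overlap.

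Neurod2 (ENSMUSG00000038255, chr11:98325415-98329648, minus strand) encodes a basic helix-loop-helix factor of differentiating and adult excitatory neurons. It stood at 1693, 962 and 1608 in WT input, 1402, 1016 and 1864 in TG input, 1432, 963 and 1583 in WT polysome and 1446, 868 and 1870.1 in TG polysome. Number 2 was the lowest library of each group, and the ranges of the 4 groups overlapped. Neurod6 (ENSMUSG00000037984, chr6:55677822-55681263, minus strand), the related factor whose locus is widely used to drive Cre in cortical excitatory neurons, stood at 2179, 1438 and 2028 in WT input and 1562, 1148 and 2161 in TG input. On polysomes Neurod6 reached 1786, 992 and 1280.2 in WT libraries and 1496, 906 and 1356 in TG libraries. Every Neurod6 polysome library lay below the input library of the same genotype and number.

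Emx1 (ENSMUSG00000033726, chr6:85187438-85204462, plus strand), a homeobox gene of the dorsal telencephalon, was the gene with the lowest counts. It stood at 325, 131 and 276 in WT input and 259, 108 and 237 in TG input, and at 374, 159 and 384 in WT polysome and 312, 163 and 399.5 in TG polysome. The number 2 libraries held less than any other library, and each polysome library lay above its input partner.

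Among the deep-layer factors, Fezf2 (ENSMUSG00000021743, chr14:12342094-12348189, minus strand) specifies neurons that project below the cortex. It stood at 700.2, 479.7 and 610.3 in WT input, 455, 340.3 and 538 in TG input, 695, 433 and 548 in WT polysome and 598, 334 and 598 in TG polysome. Its range was the narrowest of the 7, with a highest library 2.10 times the lowest. Tbr1 (ENSMUSG00000035033, chr2:61802930-61814114, plus strand), a T-box factor of neurons that project to the thalamus, stood at 3674, 1351 and 2654 in WT input and 2083, 1565 and 3196 in TG input. Polysome libraries of WT mice held 2875, 1412 and 1725 and those of TG mice 2112, 1384 and 1743. The highest Tbr1 library, WT input number 1, was 2.72 times the lowest, WT input number 2, so the extremes fell within 1 group.

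Of the upper-layer factors, Cux2 (ENSMUSG00000042589, chr5:121856366-122050102, minus strand), a cut-like homeobox gene of intratelencephalic neurons, varied most. It stood at 2156, 813 and 1935 in WT input, 1330.1, 505 and 2991 in TG input, 1607, 766 and 1478 in WT polysome and 863, 536 and 1242 in TG polysome. The highest library was 5.92 times the lowest, and both were TG input libraries (numbers 3 and 2). Rorb (ENSMUSG00000036192, chr19:18930605-19111196, minus strand), a nuclear receptor of the cortical layer that receives thalamic input, stood at 2783, 2126 and 2461 in WT input and 3005, 1755 and 2397 in TG input. With 3895, 3024 and 3870.4 in WT polysome and 3795, 3376 and 3729 in TG polysome, the lowest polysome library was above the highest input library.

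**Figure D1:**
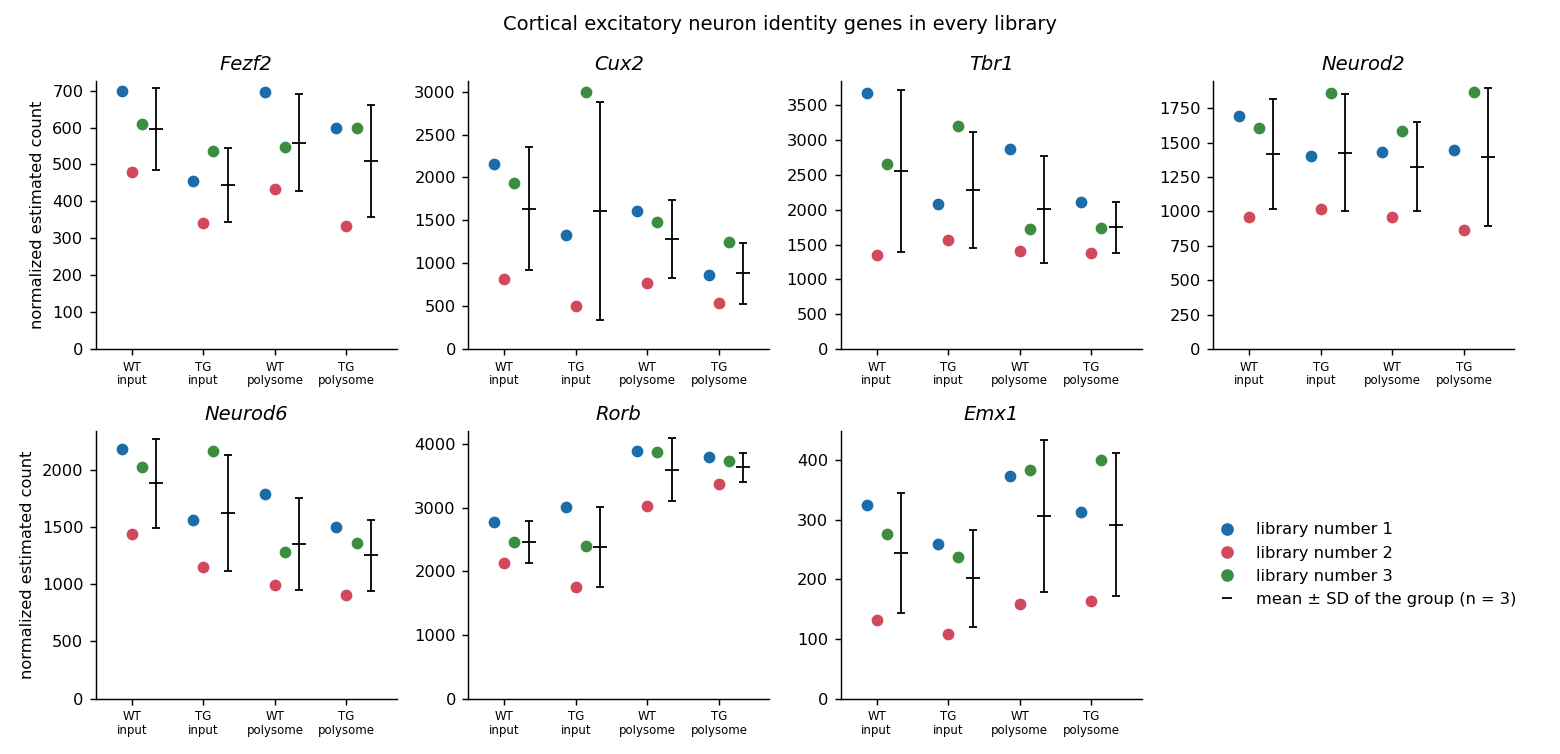
Normalized estimated counts (vertical axis, from 0) of the 7 genes in each of the 12 libraries, by group, coloured by library number, with group mean ± SD (n = 3). Number 2 is the lowest library of every group for every gene, and for Rorb all polysome libraries (3024 to 3895) lie above all input libraries (1755 to 3005).

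Per kilobase of exon, Neurod6 had the highest mean level of the 7 in each group. In WT input it reached 875 ± 182 units per kb (SD, n = 3), followed by Tbr1 at 467 ± 212, Neurod2 at 452 ± 127, Rorb at 222 ± 29.6, Fezf2 at 196 ± 36.4, Cux2 at 162 ± 71.4 and Emx1 at 112 ± 46.1. Only between Neurod2 and Rorb did neighbours in this order have ranges that did not overlap. In WT polysome the order was Neurod6 (629 ± 187), Neurod2 (422 ± 103), Tbr1 (365 ± 141), Rorb (325 ± 44.8), Fezf2 (183 ± 43.1), Emx1 (140 ± 58.3) and Cux2 (127 ± 44.9), and the only gap without overlap lay between Rorb and Fezf2. In TG libraries the gap lay after Tbr1 in both fractions, above Rorb in input and above Fezf2 in polysome. By mean level the order thus placed Neurod6, Neurod2 and Tbr1 above Fezf2, Cux2 and Emx1, with Rorb changing sides of the gap between input and polysome. Gaps were read between neighbours only, and genes further apart could overlap. In TG input the highest Cux2 library (297 units per kb) lay above the lowest Tbr1 library (285). Exonic length here is that of all annotated transcripts merged, so the per-kb level of Cux2 and Rorb, with 11 and 5 transcripts, depends on which of them are made.

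The first comparison was between library numbers. The genes and lists were chosen with it already known that cortical markers were lower and medium spiny markers higher in number 2. Counts, p-values and shares of all genes in this comparison therefore describe the difference and are no independent test of it. All 7 genes were lowest in number 2, in both genotypes and both fractions. In input, the mean of both number 2 libraries was 31.3% of the mean of the other 4 for Cux2, 43.6% for Emx1, 50.2% for Tbr1, 60.2% for Neurod2, 65.2% for Neurod6, 71.2% for Fezf2 and 72.9% for Rorb. In polysome libraries the same shares were 50.2% for Cux2, 43.8% for Emx1, 66.1% for Tbr1, 57.9% for Neurod2, 64.1% for Neurod6, 62.9% for Fezf2 and 83.7% for Rorb. Cux2 and Emx1 were thus the most reduced and Rorb the least.

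Both number 2 libraries lay below the other 4 for 6 of the 7 genes in input, the exception being Fezf2, and for 7 of 7 in polysome. The same position was taken by 15% of all genes tested in input and 16.1% in polysome. A moderated F test over the 3 numbers (limma, genotype as covariate, Benjamini-Hochberg adjustment over all genes) called 6 of the 7 genes in input, against 20.5% of all genes tested. The genes called with number 2 lowest made up 7.07% of those tested. Adjusted p ran from 0.00839 for Cux2 to 0.0423 for Rorb, with 0.00914 for Emx1, 0.0174 for Neurod2, 0.0318 for Tbr1 and 0.0338 for Neurod6. Fezf2 missed the threshold at 0.104. In polysome libraries 6 of the 7 were again called, against 26.5% of all genes (8.56% with number 2 lowest). Here adjusted p was between 0.00294 (Emx1) and 0.0192 (Fezf2), and Rorb missed at 0.240.

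For Cux2 in input, number 2 was lower than number 1 by a log2 difference of -1.40 and number 3 was higher than number 2 by 1.91 (SE 0.29). For Emx1, number 2 minus number 1 was -1.28 (SE 0.21) in input and -1.08 (SE 0.17) in polysome, where number 3 was higher than number 2 by 1.28. Tbr1 gave -0.93 and 1.00 (SE 0.24) in input, but in polysome its number 3 stayed only 0.31 above number 2 (SE 0.15) while number 1 was higher by more (number 2 minus number 1, -0.82). Number 3 minus number 1 was -0.51 for Tbr1 there, so these numbers were not alike for that gene. In polysome, numbers 1 and 3 also did not overlap for Neurod6, with number 1 higher, or for Neurod2 and Emx1, with number 1 lower. In input they parted for Rorb alone, with number 1 higher. The calls depended on the trend of variance on mean level in the fit: without it none of the 7 passed in either fraction, with adjusted p of 0.111 to 0.197 in input and 0.0527 to 0.0867 in polysome for the genes called before. Leaving out 1 library left 2 to 6 of the 7 called in input, with 2 without TG input number 3 and 3 without WT input number 2. In polysome it left 1 to 6, with 1 without TG polysome number 2 and 2 without WT polysome number 2.

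Markers of medium spiny neurons moved the other way, as was known when the list was chosen. All 19 measured markers were called by number in both fractions, against 20.5% of all genes in input and 26.5% in polysome. In each fraction 18 of 19 had both number 2 libraries above the other 4, against 16.8% of all genes in input and 19.1% in polysome. The 19 markers' median difference of number 2 from the others was 1.03 in input and 1.01 in polysome (log2). It was 0.03 and 0.04 over all genes and -0.72 and -0.67 for the 7 cortical genes. The summed medium spiny signal was 303364 to 423899 in the 8 libraries of numbers 1 and 3 and 646592 to 770974 in the 4 libraries of number 2. The sum of the 7 cortical genes was 10097 to 13510 in the former and 6438 to 7748 in the latter. The ratio of medium spiny to cortical signal was therefore 22.5 to 39.9 in 8 libraries and 88.6 to 113 in the 4 of number 2, with no library between. In bulk RNA, fewer cortical cells or terminals and less RNA in each of them cannot be told apart, and the part of tissue composition in these differences was not tested.

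**Figure D2:**
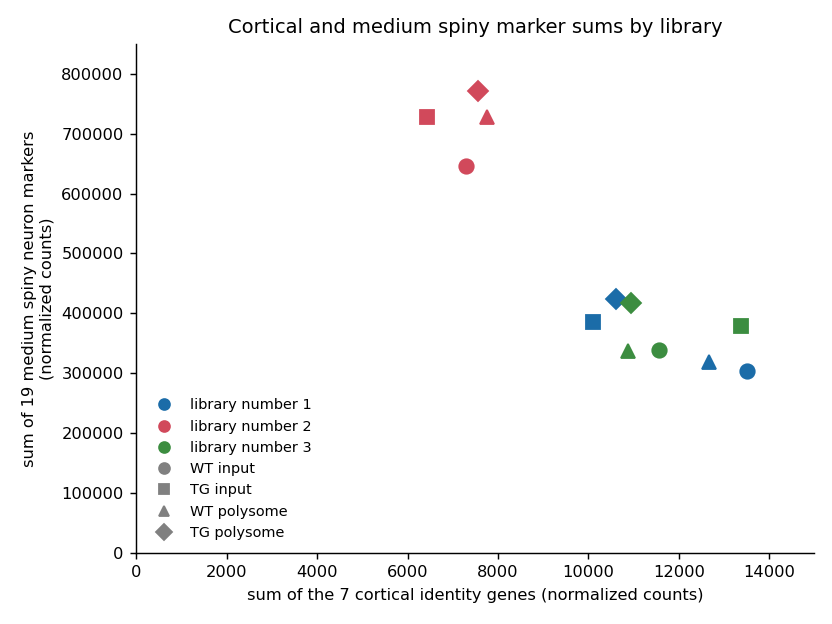
Sum of the 7 cortical genes (horizontal axis, normalized counts) against the sum of 19 medium spiny neuron markers (vertical axis, normalized counts) in each of the 12 libraries. The 4 libraries of number 2 (red) lie apart, with cortical sums of 6438 to 7748 and medium spiny sums of 646592 to 770974, whatever their genotype or fraction.

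Other genes of cortical excitatory neurons were followed as a pair of lists. Of 16 cortical effector genes, which encode synaptic and layer-specific products, 10 were called by number in input, 8 of them lowest in number 2. In polysome it was 11 of 16, again 8 of them lowest in number 2. Of all genes tested, 20.5% were called in input and 26.5% in polysome, and 7.07% and 8.56% with number 2 lowest. The vesicular glutamate transporter Slc17a7 was lower in number 2 by a log2 difference of -1.24 from number 1, with number 3 higher than number 2 by 1.31, in input. For Slc30a3, the zinc transporter of cortical glutamatergic vesicles, these values were -1.68 and 1.61. The list's median difference was -0.76 in input and -0.51 in polysome, close to that of the 7 genes. Nrgn, which encodes the calmodulin-binding protein neurogranin, was called with number 2 highest in both fractions.

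Of 19 other cortical transcription factors, 18 were tested in each fraction, and they did not move as 1 group. In input 9 of 18 were called, against 20.5% of all genes (7.07% with number 2 lowest). Mef2c, Bhlhe22, Neurod1 and Sox5 were lowest in number 2, while Tle4, Foxp2, Bcl11b and Pou3f1 were highest there. Neurod1, a relative of Neurod2, had values of -2.12 (number 2 minus number 1) and 1.96 (number 3 minus number 2), and Bhlhe22, which acts in upper-layer area identity, had -1.86 and 2.17. Bcl11b and Foxp2 are also made by medium spiny neurons. In polysome 9 of 18 were called, 4 lowest and 5 highest in number 2, against 26.5% of all genes (8.56% with number 2 lowest). The list's median difference was 0.02 in input and -0.11 in polysome.

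Markers of some other cells and regions also differed by number, beside 20.5% of all genes called in input and 26.5% in polysome. In input, none of 8 astrocyte, 4 oligodendrocyte precursor, 4 claustrum and insula and 5 endothelial and mural markers was called. In polysome 3, 1, 2 and 1 of them were. Striatal interneuron markers had 2 of 8 called in input and 5 of 8 in polysome. Thalamic excitatory markers had 4 of 8 called in input, 3 lowest in number 2 and 1 highest, and 5 of 8 in polysome, 3 lowest and 2 highest. Prkcd, a kinase gene of thalamic relay neurons, gave -1.56 and 2.28 in input. Oligodendrocyte markers had 5 of 7 called in input and 3 of 7 in polysome, all highest in number 2. Summed oligodendrocyte signal was 341966 to 413765 in number 2 input libraries and 230716 to 262198 in the other 4. Of 6 microglial markers 4 were called in input, 2 of them lowest in number 2 and none highest. In polysome 2 of 6 were called, all lowest in number 2, which is near the share of all genes called. No marker list had a gene at 0 in all libraries, and how far each cell type bears on the cortical values was not tested.

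**Figure D3:**
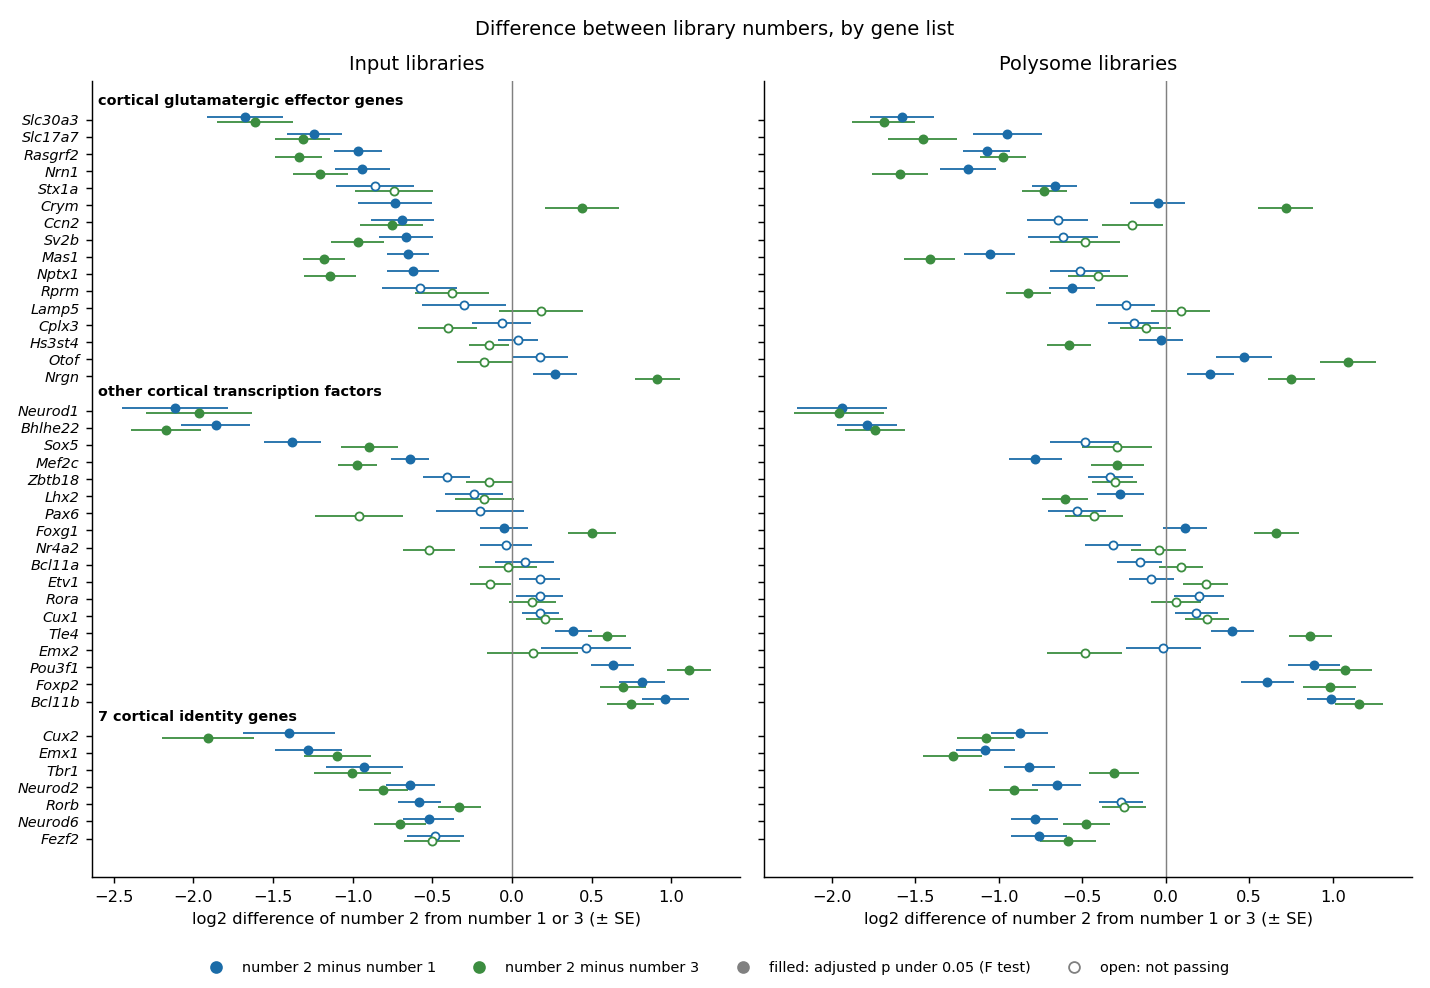
Log2 difference (± SE, horizontal axis) of number 2 from number 1 (blue) and from number 3 (green) for the 7 genes and both lists of other cortical genes, in input (left) and polysome libraries (right), with filled symbols for adjusted p under 0.05. The 7 genes and most effector genes lie left of 0, whereas Bcl11b, Foxp2, Tle4 and Pou3f1 lie right of it.

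The second comparison, polysome against input, asks how much of a transcript is found on ribosomes relative to synaptosomal RNA as a whole. Of the 7 genes, Rorb had the highest mean difference. It was higher in polysome in all 6 pairs of same genotype and number, by 0.49, 0.51 and 0.65 in WT and 0.34, 0.94 and 0.64 in TG (log2). Its mean went from 2456 ± 328 in WT input to 3597 ± 496 in WT polysome, and from 2386 ± 625 in TG input to 3634 ± 225 in TG polysome (SD, n = 3), without overlap in either genotype. Polysome values above all input values were found for 17.7% of genes in WT and 17.6% in TG, and a rise in all 6 pairs for 25% of genes, so that this position is a common one in the table.

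In limma over all 12 libraries, the Rorb difference was 0.64 ± 0.20 (SE) in TG (adjusted p = 0.0412), the only call among the 7 genes there, against 18.1% of all genes (8.19% higher and 9.86% lower). In WT it was 0.55 ± 0.20 (adjusted p = 0.0810), and none of the 7 passed, against 14% of all genes (5.36% higher and 8.59% lower). With the number as a block within each genotype, Rorb passed in both (adjusted p = 0.0173 in WT and 0.00821 in TG). The block also raised the share of all genes called, to 29.8% in WT and 33.2% in TG. The call in TG was lost without the variance trend (adjusted p = 0.0629), in a fit of the TG libraries alone (adjusted p = 0.0868) and in 7 of the 12 fits that left out 1 library. Those were WT input number 3, TG input numbers 2 and 3, WT polysome number 1 and TG polysome numbers 1, 2 and 3. The difference was 0.43 to 0.82 over the 12 fits.

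Emx1 was also higher in polysome in 6 of 6 pairs, by 0.20 to 0.75 (log2), and Neurod6 was lower in 6 of 6, by -0.06 to -0.67, as were 24.1% of all genes. For Emx1 the difference was 0.32 ± 0.47 in WT (adjusted p = 0.704) and 0.54 ± 0.47 in TG (adjusted p = 0.469), and with the block it passed in TG only (adjusted p = 0.159 and 0.0284). For Neurod6 it was -0.50 ± 0.28 in WT (adjusted p = 0.264) and -0.36 ± 0.28 in TG (adjusted p = 0.416), and with the block it passed in WT only (adjusted p = 0.0317 and 0.0861). For neither gene did the polysome and input groups part without the block, and each call with it covered 1 genotype.

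The other 4 genes did not pass with or without the block. Cux2 gave -0.30 ± 0.57 in WT and -0.60 ± 0.57 in TG, and Tbr1 gave -0.30 ± 0.37 and -0.34 ± 0.37. Fezf2 gave -0.10 ± 0.27 and 0.17 ± 0.27, and Neurod2 gave -0.09 ± 0.32 and -0.06 ± 0.32. The Neurod2 pairs held 3 rises and 3 falls.

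Each gene's polysome-to-input difference was also set against the mean of the other 6 in the same pair, with an exact sign-flip permutation test over the 6 pairs (two-sided, chosen after the values were seen). Rorb lay 0.73 above the others (SD 0.25, 6 of 6 pairs) and Emx1 0.53 above (SD 0.32, 6 of 6), while Neurod6 lay below by -0.46 (SD 0.22, 6 of 6) and Cux2 by -0.49 (SD 0.46, 6 of 6). All 4 had the smallest p that 6 pairs allow (exact p = 0.03125), which became 0.0547 after adjustment over the 7 tests. With 6 pairs, no gene could pass the threshold unless still more of the 7 had this smallest p. Missing the threshold was thus largely set by the number of pairs, and no conclusion was drawn from it. For Tbr1 the exact p was 0.0938, for Fezf2 0.5 and for Neurod2 0.656. The test takes the 6 pairs as independent, although WT and TG pairs share the numbers 1 to 3. Each mean also holds the other genes, so the 7 tests depend on each other and the 4 smallest p are not separate results. Cux2 by itself was lower in 5 of 6 pairs, with a rise of 0.09 in TG number 2.

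**Figure D4:**
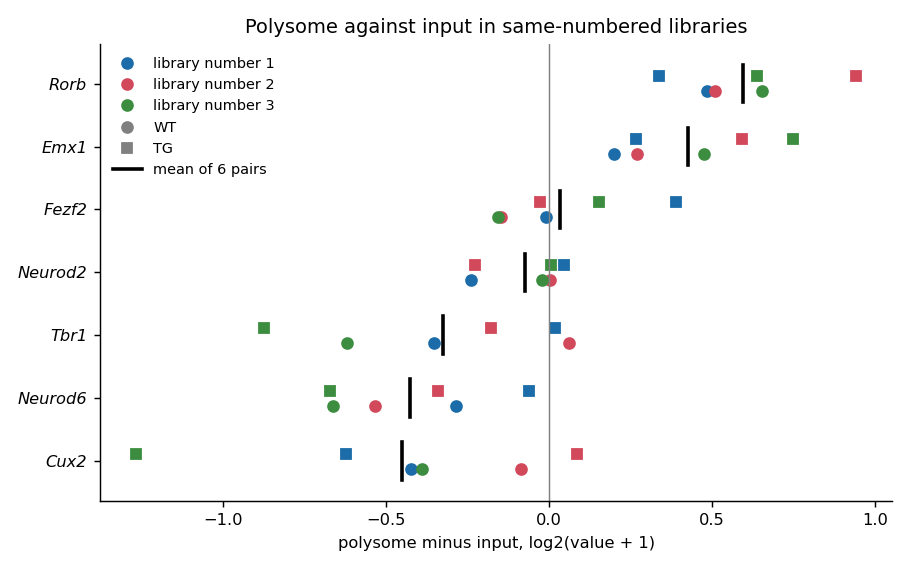
Polysome minus input on the log2(value + 1) scale (horizontal axis) for each of the 6 pairs of same genotype and number, by gene, with the mean of the pairs as a bar. All 6 pairs lie right of 0 for Rorb (0.34 to 0.94) and Emx1 (0.20 to 0.75) and left of 0 for Neurod6.

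Among the 19 other cortical transcription factors, 1 was called in each genotype, and it was lower in polysome. That gene, Nr4a2, an orphan nuclear receptor of claustrum and deep cortex, gave -0.85 ± 0.22 in WT (adjusted p = 0.0246) and -0.89 in TG (adjusted p = 0.0172). The list's median was -0.28 in WT and -0.42 in TG, beside 0.03 over all genes, and with the block 5 and 6 of its 19 genes were called, all lower, beside 29.8% and 33.2% of all genes called in either direction. Of the 16 effector genes 1 was called in each genotype, Otof, lower by -1.29 ± 0.30 in WT (adjusted p = 0.0174) and -1.19 in TG (adjusted p = 0.0192), while the list's median was 0.23 in each. With the block, 5 effector genes were called higher and 3 lower in WT, and 6 higher and 3 lower in TG. The Rorb difference thus had the sign of the effector genes' median and the opposite sign to the median of the other transcription factors. Both lists held genes of either sign. Of the 19 factors 6 were higher in WT and 5 in TG, and of the 16 effector genes 5 and 6 were lower.

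The third comparison was TG against WT, the question of the study's design. None of the 7 genes passed in input or in polysome (limma, adjusted p = 1.00 for each), with or without the replicate block. With the block only Shank3 passed in polysome (0.00613% of genes tested). Without it no gene in the table was called in either fraction (0% each), and 0.49% and 0.325% of genes had an unadjusted p under 0.05. For all 7 genes the WT and TG groups overlapped.

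In input, Fezf2 was lower in TG in 3 of 3 same-numbered pairs, at 0.651, 0.709 and 0.881 of the WT value, with a log2 difference of -0.43 ± 0.23 (SE). Emx1 was lower in 3 of 3 as well, at 0.797, 0.822 and 0.861, with -0.27 ± 0.44. All 3 pairs were lower for 10.2% of all genes. Cux2 went both ways, at 0.617 and 0.621 in numbers 1 and 2 and 1.55 in number 3, with -0.25 ± 0.62. The others gave -0.24 ± 0.26 (Neurod6), -0.11 ± 0.39 (Tbr1), -0.07 ± 0.22 (Rorb) and 0.01 ± 0.29 (Neurod2). The median over the 7 genes was -0.24, beside -0.01 over all genes.

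In polysome libraries Cux2 was lower in TG in 3 of 3 pairs, at 0.537, 0.700 and 0.840 of WT, with a log2 difference of -0.55 ± 0.37, a position that 8.34% of all genes shared. Its means were 1284 ± 453 in WT and 880.4 ± 353 in TG (SD, n = 3), and the groups overlapped. Fezf2 gave -0.15 ± 0.28, Tbr1 -0.15 ± 0.28, Neurod6 -0.10 ± 0.27, Emx1 -0.05 ± 0.42, Neurod2 0.03 ± 0.30 and Rorb 0.02 ± 0.16. Rorb had the smallest error, and its polysome means of 3597 and 3634 were within 1 SD of each other. The median over the 7 was -0.10, beside 0.01 over all genes. Medium spiny markers lay higher in TG for 18 of 19 in input (median 0.19) and for 19 of 19 in polysome (median 0.20), none of them called, and their part in the cortical values was not tested.

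**Figure D5:**
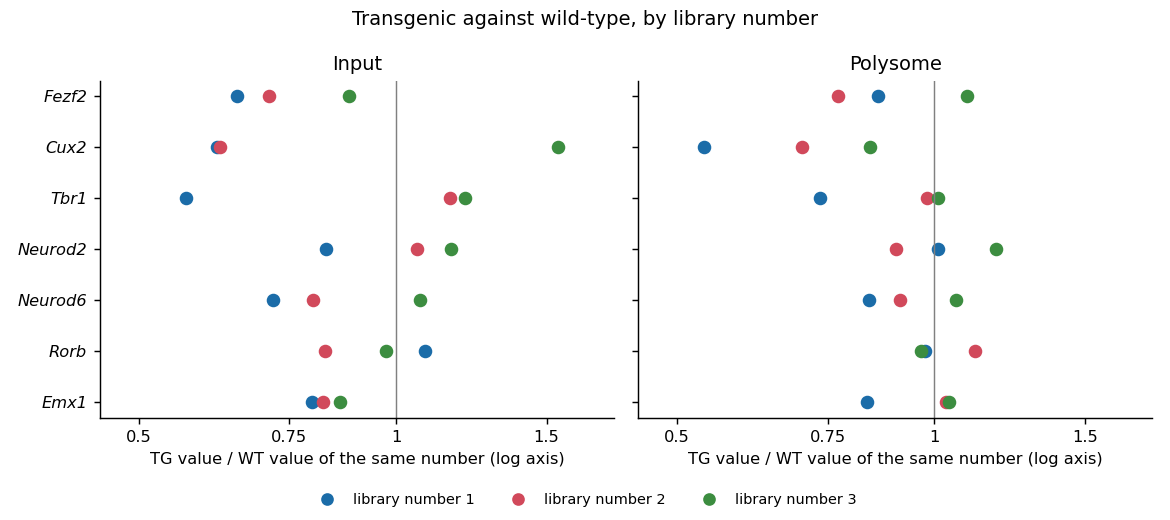
Value in TG divided by the value in WT (horizontal log axis) for each library number, in input (left) and polysome (right). In input the 3 points of Fezf2 (0.651 to 0.881) and Emx1 (0.797 to 0.861) lie left of 1, in polysome those of Cux2 (0.537 to 0.840), and the other genes have points on both sides.

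Whether the genotype difference itself differed between polysome and input was tested as an interaction, and none of the 7 genes passed (adjusted p = 1.00 for each, and 0% of all genes called, with 0.554% at an unadjusted p under 0.05). The estimates ran from -0.30 ± 0.81 for Cux2 to 0.28 ± 0.38 for Fezf2 (log2, SE), with 0.22 ± 0.67 for Emx1, 0.14 ± 0.40 for Neurod6, 0.09 ± 0.28 for Rorb, 0.03 ± 0.46 for Neurod2 and -0.04 ± 0.53 for Tbr1. Each SE exceeded its estimate.

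Over the 12 libraries, the 15 pairs that can be formed without Rorb had Pearson correlations of 0.50 to 0.91 (median 0.77) on the log2(value + 1) scale. The 6 pairs with Rorb had -0.12 to 0.74 (median 0.21), but within the 6 input libraries alone they had 0.61 to 0.90. These are descriptions: the libraries share numbers, depth and fraction. Against the mean profile of the 7 genes, the other genes among 13167 candidates, which include the 7, were ranked by the same correlation. The most alike were Evc2, Met, Boc, Glt8d2, Htr3a, Adcyap1, Tmem200a, Neurod1, Dpp10 and Smoc2, with correlations of 0.97 to 0.98. The receptor tyrosine kinase gene Met was thus among them, as was Neurod1, which the list of other cortical factors already held. The least alike were Syndig1l, Ptpn7, Cnst, Ypel2 and Mtus1, at -0.96 to -0.98. By single gene, the closest profile was that of Cd6 for Fezf2 (0.94), Syp for Cux2 (0.97), Susd5 for Tbr1 (0.95), Mettl27 for Neurod2 (0.96), Ptprk for Neurod6 (0.99), Hes6 for Rorb (0.98) and Fam19a1 for Emx1 (0.98). No gene was the closest to more than 1 of the 7.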

How the data were processed

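The authors deposited 1 table of 21492 genes by 12 libraries. Its signal values are estimated counts per gene that the authors normalized before they were deposited, and they are not whole numbers. Per the labels' protocols, libraries came from a TruSeq stranded total RNA kit. Per the submitters' processing notes, Salmon 1.1.0, R 3.6.2 and DESeq2 1.26.0 were used with the build GRCm38. No source used here gives the annotation or the normalization's design. Only 32.4% to 45.9% of the low values lay within 0.1 read of a whole number, so reads were not recovered and no count test was run. The normalization sets all libraries to a common scale, so a gene's value depends on what else the library holds.

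Gene identifiers were matched to GENCODE M21 (21465 of 21492), and promoter windows came from RefSeq on GRCm38.p6. Values were taken as log2(value + 1), which understates changes of low genes, and limma 3.58.1 (R 4.3.3) was fitted with its variance trend on mean level. A gene was tested if at least 3 fitted libraries reached 10. P-values were adjusted over all genes tested (Benjamini-Hochberg, threshold 0.05). Genotype and library number were fitted within the 6 libraries of a fraction, and polysome against input and the interaction over all 12. The scripts were tested on simulated data.

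The members and gene lists were chosen with earlier results of these data known, among them that cortical markers were lower and medium spiny markers higher in number 2. The genes named are the 7 members, Shank3, the called list genes with the largest rise and fall, and the genes with the most similar profiles. Other list genes (Slc17a7, Bhlhe22, Foxp2 and the like) were named after their values were seen. One gene of the list of other cortical transcription factors is not reported here and does not enter that list's counts. Since no label ties a sample to its own animal, p-values reflect only how far these samples spread, which may be technical. Libraries share the numbers 1 to 3: deviations from group means correlated at 0.24 to 0.55 in the 18 same-numbered pairs and at -0.41 to -0.00088 in the 36 others, over 16962 genes, so fits with the number as a replicate block were run as well. The other alternatives were scaling by trimmed means of M values, filters, pseudocounts of 0.5 and 10, no variance trend, other library sets and each library left out. Leaving out all libraries of a number was added after the data were seen.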

Additional observations from a re-analysis of the deposited data

How the results depend on the processing

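Over the 7 genes and 7 comparisons, the value reversed its sign in 59 of 420 fits that left out 1 library and in 8 of 455 other fits. These totals include the library-number fits, whose value was the largest absolute difference between numbers. Such a value has no sign and could not reverse, so the share of reversals among the remaining fits was higher. The 59 were all of differences that missed the threshold. Scaling by trimmed means, other filters and other pseudocounts reversed none of the 7 genes.

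The replicate block, from the pairing by number, called 1 gene for genotype in polysome, 5052 for polysome against input in WT and 5638 in TG, with 2 of the 7 genes called in each of the latter. For genotype and the interaction it called none of the 7. Leaving out number 1, 2 or 3 from the block fit called 1, 6 and 2 genes for genotype in input. In polysome, leaving out number 1 called 3 genes, and leaving out number 3 called 89 and 1 of the 7, Cux2 (-0.70, adjusted p = 0.0231, limma). In these fits, genotype values reversed in input to 0.24 for Tbr1 (without number 1), -0.029 for Neurod2 and 0.037 for Rorb (without number 2) and -0.096 for Neurod2 (without number 3). In polysome they reversed to 0.050 for Emx1 (without number 1), -0.046 for Rorb (without number 2) and -0.068 for Neurod2 (without number 3). For polysome against input without number 1, 2 or 3, counts fell to 214, 140 and 346 in WT and to 462, 332 and 484 in TG, with 0 of the 7 called in TG. There Neurod2 in TG reversed to 0.025 without number 2. Fewer libraries were fitted in each of these.

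In TG, a fit of the genotype's 6 libraries called 1700 genes and 0 of the 7, and without the variance trend 0 of the 7 were called. For library number, no variance trend gave 17 genes in input and 92 in polysome and 0 of the 7 in each, and no filter gave 2032 genes and 3 of the 7 in input. The cause was not tested.

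With 1 library left out, genes called ranged from 0 to 1 for genotype in input and in polysome, 648 to 2566 for polysome against input in WT, 1205 to 3263 in TG (0 to 1 of the 7), 0 to 2 for the interaction, 1397 to 4233 for number in input (2 to 6 of the 7) and 1722 to 4494 in polysome (1 to 6 of the 7). Genotype values that reversed ranged in input from -0.87 to 0.41 (Cux2), -0.52 to 0.21 (Tbr1), -0.25 to 0.23 (Neurod2), -0.25 to 0.14 (Rorb) and -0.67 to 0.12 (Emx1). In polysome they ranged from -0.32 to 0.12 (Fezf2), -0.37 to 0.14 (Tbr1), -0.21 to 0.34 (Neurod2), -0.30 to 0.12 (Neurod6), -0.10 to 0.085 (Rorb) and -0.47 to 0.32 (Emx1). Polysome against input ranged in WT from -0.28 to 0.065 (Fezf2), -0.74 to 0.036 (Cux2), -0.71 to 0.014 (Tbr1), -0.35 to 0.13 (Neurod2) and -0.079 to 0.73 (Emx1), and in TG from -0.0073 to 0.45 (Fezf2), -1.26 to 0.020 (Cux2) and -0.31 to 0.25 (Neurod2). The interaction ranged from -0.96 to 0.32 (Cux2), -0.36 to 0.36 (Tbr1), -0.22 to 0.33 (Neurod2), -0.090 to 0.37 (Neurod6), -0.11 to 0.27 (Rorb) and -0.20 to 0.62 (Emx1).

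Emx1, at an estimated 72 reads in its lowest library, was the least precisely counted of the 7 genes.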

Other observations

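Some lists that entered no comparison of the 7 genes also separated libraries, though not by number alone. Summed choroid and ependymal markers, among them the transthyretin gene Ttr, ran from 549.99 in WT input number 1 to 33744 in TG polysome number 3. The high libraries were numbers 2 and 3 in WT and number 3 in TG, so the pattern of the sum crossed that of the cortical genes, whose low libraries were number 2 in both genotypes. In WT input number 2, Folr1, Foxj1 and Kl held only 85.3, 313 and 506 of a sum of 10388. Folr1 and Kl had the same high libraries as the sum. Foxj1 did not: its highest library was TG input number 2 (332), where the sum was 811. Tmem212, at 0 to 18.5, did not follow the sum either. Summed nuclear noncoding RNA, among them Malat1, was 14825 and 17576 in the number 2 input libraries and 5710.1 to 7391 in the other 4 input libraries. In polysome libraries it was 2576 to 5391, with numbers 1 to 3 intermixed. Malat1 alone gave 13424 and 15901 of the number 2 input sums. Of 5 genes of this list tested in input, 3 were called with number 2 highest, beside 20.5% of all genes called in any direction. The input values of Neat1 and Snhg11 overlapped between number 2 and the others. Summed astrocyte markers ranged from 238601 to 437126 and were lowest in number 3 of WT polysome.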
